A study of Mus musculus with 3 samples.

Results

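The genes described here encode secreted immune signals: chemokines of the Ccl, Cxcl and Cx3cl1 families, interleukins, the colony-stimulating factors Csf1, Csf2 and Csf3, Lif, Tnf and ligands of the Tnfsf family. A rule on the gene symbol picked them, and 51 of the 15529 named genes of the series matched. In the RefSeq annotation of GRCm38.p6, 86 genes match the same rule, and 35 of them were listed in none of the tables. Of those 35, 4 are interleukin receptors whose symbols end in r. Messenger RNA was sequenced from 3 mouse tumour cell lines, each with a single library. The melanoma lines, both from skin, are B16-F1 of strain C57BL/6J and Cloudman S91 of strain DBA, and 4T1 comes from a mammary carcinoma of strain BALB/cfC3H. The melanoma lines grew in DMEM and 4T1 in RPMI, all with 10% fetal bovine serum, and no line received a treatment per the labels. Tumour type, strain and medium therefore cannot be told apart in any comparison with 4T1. Each library stands for 1 culture of its line.

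Chemokines are small proteins that direct the migration of leukocytes through receptors coupled to G proteins. Colony-stimulating factors drive the growth and maturation of myeloid cells, and interleukins and ligands of the TNF family carry signals between immune cells, epithelium and stroma. Many of these genes are silent in resting cells and are transcribed after activation of the factors NF-kappaB and AP-1. The 4T1 line is used widely as a model of mammary cancer with a strong expansion of neutrophils in the host, and B16 lines as models of poorly immunogenic melanoma.

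The libraries held between 7412840 and 9098072 expected counts (estimated reads per gene). Levels are given as FPKM, which is the expected count divided by the listed length and by the library total. A gene without a row in a table is called not listed and was taken as 0. Because no line has a replicate, no test was made, and every interval given is an exact 95% interval for counting error only. Most markers matched the labelled cell types: all 7 melanocyte markers reached FPKM 1 in B16-F1 and in Cloudman S91, and all 7 epithelial markers did so in 4T1. However, 2 melanocyte markers also reached it in 4T1, Mitf at 1.23 and Tyr at 5.74. Tyr stood at 4.99 in Cloudman S91 and thus did not separate that line from 4T1. The epithelial marker Cdh1 reached 2.21 in Cloudman S91. The median difference over all genes tested was -0.03 in log2(FPKM + 1) for 4T1 minus B16-F1, 0.14 for 4T1 minus Cloudman S91 and 0.14 for B16-F1 minus Cloudman S91, and rescaling to TPM moved these to -0.38, -0.31 and 0.06.

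The 4T1 library carried far more cytokine messenger RNA than either melanoma library. In 4T1 the 51 genes held 0.137% of all counts (Wilson 95% interval 0.135% to 0.139%), against 0.00528% in B16-F1 (0.00484% to 0.00578%) and 0.00515% in Cloudman S91 (0.00466% to 0.0057%). The share in 4T1 was 25.9 times that of B16-F1 (23.7 to 28.4) and 26.6 times that of Cloudman S91 (24.0 to 29.5). A larger share of producing cells and more RNA per producing cell cannot be told apart in bulk RNA. Of the 51 genes, 43 were listed in 4T1, 25 in B16-F1 and 26 in Cloudman S91. FPKM 1 was reached by 25 genes in 4T1, 5 in B16-F1 and 7 in Cloudman S91, and FPKM 10 by 13 genes in 4T1 and 0 in the melanoma lines. Over all 15529 named genes the lines differed little. In 4T1, B16-F1 and Cloudman S91 in turn, 13188, 13606 and 13884 were listed, and 10564, 10466 and 10527 reached FPKM 1. There were 21 cytokine genes that reached FPKM 1 in 4T1 and in neither melanoma line, and 4 that reached it in all lines. The same overlap between lines was not counted over all named genes.

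A gene counted as called where log2(FPKM + 1) differed by 2 or more, or 4-fold on that scale, and either library of the pair reached FPKM 1. Against B16-F1, 26 of the 51 genes were tested, and 15 were higher in 4T1 and 0 higher in B16-F1. Of all 11547 genes tested, 7.43% and 6.31% were called in those directions. Against Cloudman S91, 28 were tested, and 15 were higher in 4T1 and 0 in Cloudman S91, beside 8.01% and 7.47% of 11657 genes. The comparisons share the 4T1 library, and the same 15 genes were called in both: Ccl2, Ccl5, Ccl20, Cx3cl1, Cxcl1, Cxcl3, Cxcl5, Cxcl16, Csf1, Csf3, Il1a, Il23a, Il24, Il34 and Lif. Of these, 7 were listed in neither melanoma table. The median difference was 3.02 over the 26 cytokine genes tested for 4T1 minus B16-F1 and 2.22 over the 28 tested for 4T1 minus Cloudman S91. A gene high in 4T1 passes the filter through that level alone, so these medians describe the genes that passed, not all 51. Between the melanoma lines 0 of the 51 genes were called in either direction, and 7 cytokine genes were tested. Of all 11133 genes, 5.52% were called there, 2.33% as higher in B16-F1 and 3.19% as higher in Cloudman S91. With 7 cytokine genes tested, the count of 0 says little.

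**Figure D1:**
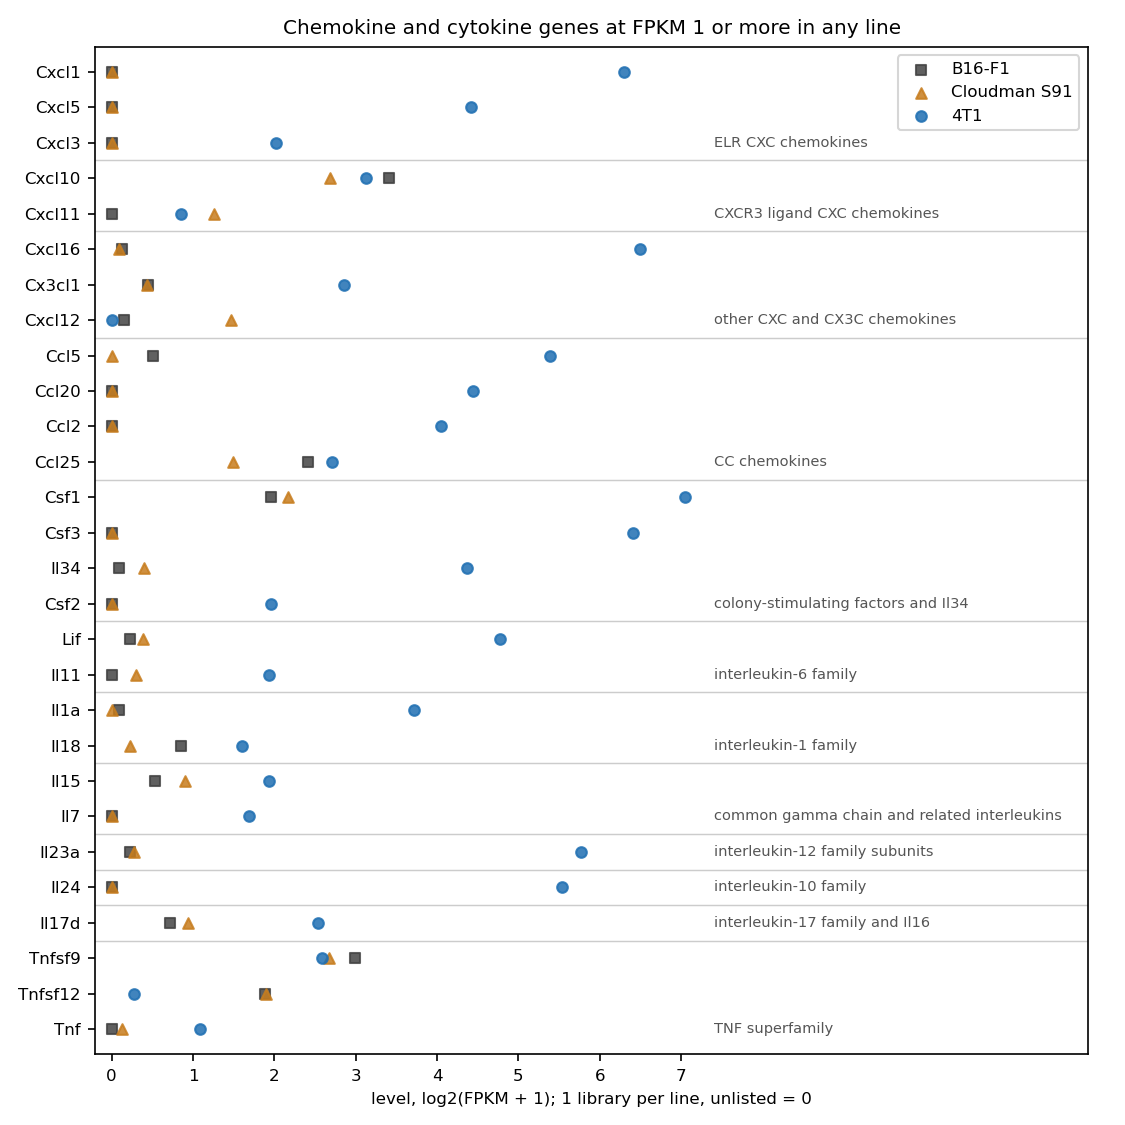
Level of each of the 28 cytokine genes that reached FPKM 1 in any line, as log2(FPKM + 1) on the horizontal axis, grouped by subfamily. Squares are B16-F1, triangles Cloudman S91 and circles 4T1, each 1 library. The 4T1 circle lies farthest to the right for 23 of the 28 genes.

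**Figure D2:**
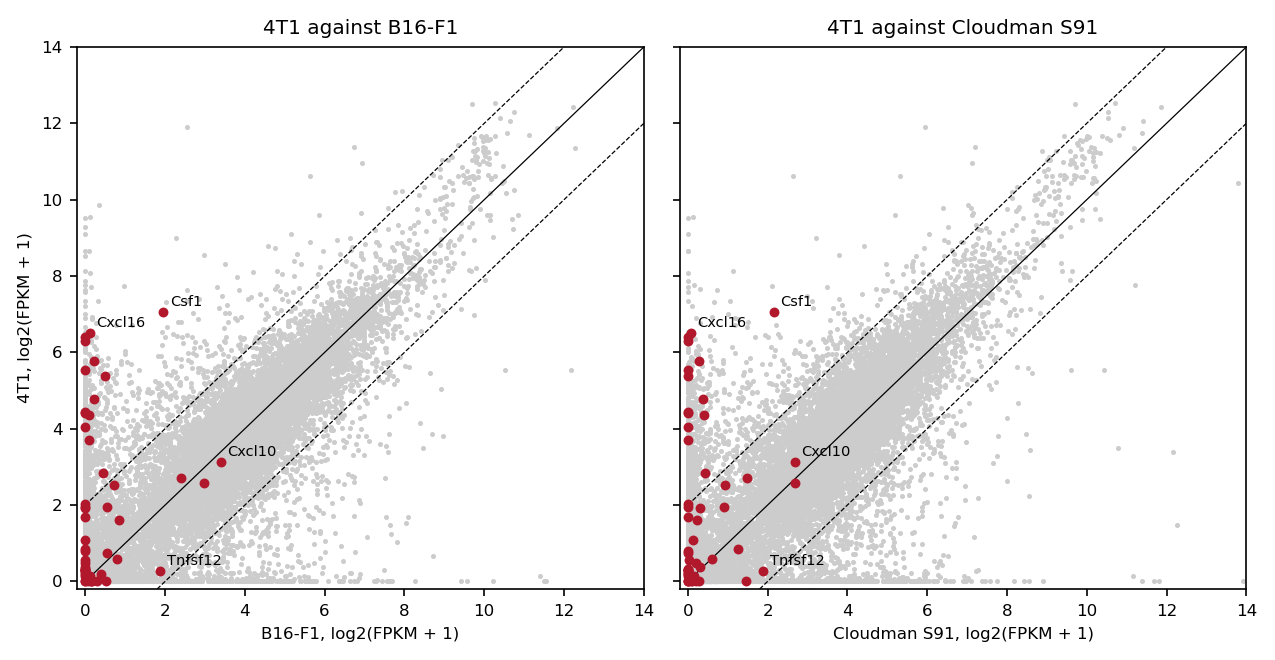
Level in 4T1 (vertical axis) against the level in B16-F1 (left) and Cloudman S91 (right), both as log2(FPKM + 1). Grey points are all named genes, red points the 51 cytokine genes, the solid line marks equal levels and the dashed lines a difference of 2. Above the upper dashed line lie 15 cytokine genes in each panel, among them Csf1 and Cxcl16, and Tnfsf12 lies on the melanoma side of the equal line.

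The highest level of any gene in the group was that of a colony-stimulating factor in 4T1. Csf1, the growth factor of macrophages (chromosome 3, 107741048 to 107760469), had FPKM 2.89 in B16-F1 (109 counts), 3.48 in Cloudman S91 (107 counts) and 132 in 4T1 (4594 counts). It was present in all lines, and its 4T1 level was 45.6 times that of B16-F1 (37.8 to 55.8) and 37.9 times that of Cloudman S91 (31.4 to 46.5). Csf1 alone held 37.4% of the cytokine counts of 4T1, and it stood at the percentile 95.7 of the genes listed there. Il34, which encodes the other ligand of the Csf1 receptor (chromosome 8, 110741829 to 110805949), had FPKM 0.06 (1 count), 0.32 (4 counts) and 19.7 (355 counts) for B16-F1, Cloudman S91 and 4T1 in turn. Both ligands of that receptor were therefore high in the same library. The ratio of Il34 for 4T1 over Cloudman S91 was 61.6, with an interval of 24.1 to 230.

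Csf3, the growth factor of neutrophils known as G-CSF (chromosome 11, 98700183 to 98703631), had FPKM 84.2 in 4T1 (1059 counts) and was not listed in the melanoma lines. With 3 counts allowed in each melanoma library, its level was at least 370-fold higher in 4T1 than in B16-F1 and at least 302-fold higher than in Cloudman S91. Csf2, which encodes GM-CSF (chromosome 11, 54247270 to 54249899), reached FPKM 2.89 in 4T1 (25 counts) and was likewise not listed elsewhere, at least 8.93-fold and 7.28-fold higher. Csf2 lay just short of the size rule, with a difference of 1.96 in log2(FPKM + 1) in both comparisons. The next gene below it against B16-F1 was Il11 at 1.93, and the gene closest above the rule was Cxcl3 at 2.02.

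The CXC chemokines with the ELR motif attract neutrophils through the receptor Cxcr2. Of the 5 genes of this subfamily, 4 were listed in 4T1 and 0 in the melanoma lines. Cxcl1 (chromosome 5, 90891245 to 90893121) had FPKM 77.8 in 4T1 (625 counts), at least 224-fold above B16-F1 and at least 183-fold above Cloudman S91. Cxcl5 (chromosome 5, 90759298 to 90761625) had FPKM 20.4 (291 counts), at least 101-fold and 82.5-fold higher, and Cxcl3 had 3.05 (26 counts), at least 9.29-fold and 7.58-fold higher. Cxcl2, the neighbour of Cxcl1 on the chromosome, had only 2 counts (FPKM 0.22), and Cxcl15 was not listed. The level of Cxcl1 was thus far above that of its closest neighbour. These genes are similar in sequence, and how the authors divided reads that match several of them was not given in the sources used here, although all 4 listed counts were whole numbers.

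The ligands of Cxcr3, which attract T cells and are induced by interferon, went another way. Cxcl10 had FPKM 9.61 in B16-F1 (93 counts), 5.45 in Cloudman S91 (43 counts) and 7.74 in 4T1 (73 counts). All lines carried it, B16-F1 highest, and no pair was called. The ratio of B16-F1 over Cloudman S91 was 1.76 (1.22 to 2.60), and that of 4T1 over B16-F1 was 0.81 (0.58 to 1.10), an interval that includes equal levels. Cxcl11 had 16 counts in Cloudman S91 (FPKM 1.4), 11 in 4T1 (0.8) and was not listed in B16-F1. RefSeq lists Cxcl11 as a transcribed pseudogene in its assembly, which is of strain C57BL/6J, the strain of B16-F1. Whether strain bears on the counts of Cxcl11 was not tested. Cxcl9 had 1 count in B16-F1 and was not listed elsewhere.

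Of the remaining CXC and CX3C chemokines, Cxcl16 and Cx3cl1 are unusual in being made as membrane-anchored proteins. Cxcl16 (chromosome 11, 70454389 to 70459984) had 2 counts in B16-F1 (FPKM 0.09), 1 in Cloudman S91 (0.06) and 1949 in 4T1 (89.4). Its ratio was 993 over B16-F1, with an interval of 270 to 8064, and 1489 over Cloudman S91, with an interval of 285 to 62928. The melanoma levels rest on so few reads that only the lower ends of these intervals are informative. Cx3cl1, or fractalkine (chromosome 8, 94772180 to 94782427), had FPKM 0.36 (10 counts), 0.35 (8 counts) and 6.22 (172 counts) for B16-F1, Cloudman S91 and 4T1 in turn, with a ratio of 17.3 for 4T1 over B16-F1 (9.32 to 37.3). Cxcl12, a chemokine of stromal cells that binds Cxcr4, was the exception: it had FPKM 1.76 in Cloudman S91 (43 counts), 0.11 in B16-F1 (3 counts) and was not listed in 4T1. The interval for Cloudman S91 over B16-F1 ran from 5.35 to 84.2, and the level was at least 17.2-fold above 4T1. Neither difference passed the size rule on the log2(FPKM + 1) scale, and both did with TPM or scaled counts.

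The CC chemokines of 4T1 were led by Ccl5, or RANTES, an attractant of T cells and monocytes (chromosome 11, 83525778 to 83530518). It had FPKM 40.9 in 4T1 (187 counts), 0.42 in B16-F1 (2 counts) and was not listed in Cloudman S91. Ccl20, which attracts cells that carry Ccr6 (chromosome 1, 83116766 to 83119167), had FPKM 20.7 (145 counts), and Ccl2, the main attractant of monocytes (chromosome 11, 82035577 to 82037452), had 15.6 (103 counts). Ccl20 and Ccl2 were listed in 4T1 alone, at least 52.6-fold and 37.5-fold above B16-F1 and at least 42.9-fold and 30.6-fold above Cloudman S91. Ccl25, known for guiding lymphocytes to thymus and gut, did not separate the tumour types: it had FPKM 4.32 in B16-F1 and 1.82 in Cloudman S91, against 5.55 in 4T1. Its 4T1 level was 1.28 times that of B16-F1 (0.85 to 1.93) and 3.05 times that of Cloudman S91 (1.72 to 5.55). Of the 19 CC chemokines on the list 9 were listed in any table, and 4 reached FPKM 1.

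The promoters of these genes are shown because the 15 genes high in 4T1 share that pattern while lying on 7 chromosomes. RefSeq promoters of GRCm38.p6 were matched for 35 of the 51 genes, and the 250 bases before the transcription start were searched on both strands for an NF-kappaB motif (GGG, then 2 bases of any kind, then TTTCC) and an AP-1 motif, TGANTCA. The sequences below are those of the 4 genes with the highest FPKM among the 15 that have an entry, and of Cxcl3, which was added after its level was seen because it shares a cluster with Cxcl1. They run 5′ to 3′ on the strand of the gene up to the base before the start, with motif matches in capitals. They lie at chr3:107760470-107760719 (minus strand) for Csf1, chr5:90890995-90891244 for Cxcl1, chr11:4257318-4257567 for Lif, chr1:83116516-83116765 for Ccl20 and chr5:90785851-90786100 for Cxcl3, the latter 4 on the plus strand.
Csf1: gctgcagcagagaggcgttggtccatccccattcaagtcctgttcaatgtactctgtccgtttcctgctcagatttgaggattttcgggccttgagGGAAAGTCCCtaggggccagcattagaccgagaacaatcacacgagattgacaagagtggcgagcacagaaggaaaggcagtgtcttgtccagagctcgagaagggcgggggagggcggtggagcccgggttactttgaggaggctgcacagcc
Cxcl1: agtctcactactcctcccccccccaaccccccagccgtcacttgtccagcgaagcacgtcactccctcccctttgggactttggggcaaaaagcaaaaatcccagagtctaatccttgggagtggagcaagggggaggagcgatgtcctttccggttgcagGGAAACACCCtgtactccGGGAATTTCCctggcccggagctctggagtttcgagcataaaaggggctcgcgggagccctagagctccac
Lif: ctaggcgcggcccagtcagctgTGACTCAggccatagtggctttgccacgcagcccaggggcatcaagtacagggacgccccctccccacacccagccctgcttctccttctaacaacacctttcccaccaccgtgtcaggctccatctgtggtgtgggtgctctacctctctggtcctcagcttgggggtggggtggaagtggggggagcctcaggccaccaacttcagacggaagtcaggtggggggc
Ccl20: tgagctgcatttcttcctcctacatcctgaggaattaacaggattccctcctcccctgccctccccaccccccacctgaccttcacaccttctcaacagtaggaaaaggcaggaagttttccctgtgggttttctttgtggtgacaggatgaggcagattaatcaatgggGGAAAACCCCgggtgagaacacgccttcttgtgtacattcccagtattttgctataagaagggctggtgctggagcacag
Cxcl3: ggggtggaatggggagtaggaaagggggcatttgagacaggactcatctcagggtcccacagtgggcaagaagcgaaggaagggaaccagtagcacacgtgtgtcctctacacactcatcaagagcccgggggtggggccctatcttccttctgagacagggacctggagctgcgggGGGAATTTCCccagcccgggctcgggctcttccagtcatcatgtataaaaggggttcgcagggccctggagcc
The NF-kappaB motif began 154 bases before the start of Csf1, 80 before that of Ccl20 and 73 before that of Cxcl3, and 89 and 71 bases before that of Cxcl1. Cxcl1 and Cxcl3 held the same 10 bases, GGGAATTTCC, at nearly the same distance. The match of Lif was to AP-1, 228 bases before its start.

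Among the genes called in both comparisons with 4T1, 7 had a promoter entry, and 4 of these held the NF-kappaB motif. The motif stood in 3 of the other 28 cytokine promoters, those of Ccl9, Cxcl2 and Il6, and in 447 of all 27025 genes of the promoter table (1.65%). The AP-1 motif stood in 2 of the 7, in 6 of the 28 and in 7.82% of all genes. No sequence shown held both motifs. Cxcl2 carried the motif at 97 and 78 bases before its start and had 2 counts in 4T1. A match is a description of the letters and not a bound site.

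The interleukin-6 family signals through the shared receptor chain Il6st. Lif, leukemia inhibitory factor (chromosome 11, 4257568 to 4272514), had FPKM 0.17 in B16-F1 (6 counts), 0.31 in Cloudman S91 (9 counts) and 26.3 in 4T1 (944 counts). Its 4T1 level was 155 times that of B16-F1 (72.7 to 434) and 84.9 times that of Cloudman S91 (45.3 to 190). Il11 had FPKM 2.82 in 4T1 (58 counts), 0.23 in Cloudman S91 (3 counts) and was not listed in B16-F1. Its listed length was 2356 bases in 4T1 and 1845 in Cloudman S91, and the ratio of 4T1 over Cloudman S91 was 12.3 in FPKM (4.11 to 62.9) and 16.1 in scaled counts. Il6, the founding member and a well-known inflammatory cytokine, had 2 counts in 4T1 and was not listed in the melanoma lines. High Lif thus stood beside almost no Il6 in the same library.

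In the interleukin-1 family, Il1a and Il1b had very different levels although they are neighbours on chromosome 2. Il1a, an alarmin that epithelial cells hold in the nucleus and release on damage (129299609 to 129310186), had FPKM 12.2 in 4T1 (208 counts), 0.06 in B16-F1 (1 count) and was not listed in Cloudman S91. Il1b, whose product is secreted by activated macrophages, had 3 counts in 4T1 (FPKM 0.26) and was not listed elsewhere. Il18 had FPKM 0.81 in B16-F1 (6 counts), 0.17 in Cloudman S91 (1 count) and 2.04 in 4T1 (14 counts), and the ratio of 4T1 over B16-F1 was 2.52 with an interval of 0.89 to 7.87. Il33, another nuclear alarmin, had 7 counts in B16-F1, 3 in 4T1 and was not listed in Cloudman S91.

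Il23a and Il24 stood out among the other interleukins. Il23a, the p19 subunit of interleukin-23 (chromosome 10, 128296140 to 128298084), had 2 counts in each melanoma line (FPKM 0.17 in B16-F1 and 0.21 in Cloudman S91) and 619 counts in 4T1 (FPKM 53.4), with a ratio of 314 over B16-F1 (87.1 to 2615). The secreted cytokine is a dimer of this subunit with the product of Il12b, and Il12b was not listed in 4T1. The only reading of Il12b was 1 count in Cloudman S91. With 3 counts allowed, the limit for Il12b in 4T1 was FPKM 0.136. Il24, a cytokine of the interleukin-10 family that acts on epithelium (chromosome 1, 130882074 to 130887411), had FPKM 45.3 in 4T1 (426 counts), at least 151-fold above B16-F1 and at least 123-fold above Cloudman S91, and was listed in neither.

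Further interleukins were low and did not pass the size rule on the log2(FPKM + 1) scale. Il15, a growth factor of natural killer and memory T cells, had FPKM 0.45 in B16-F1 and 0.87 in Cloudman S91, against 2.83 in 4T1, a ratio of 6.29 for 4T1 over B16-F1 (2.44 to 20.9) and 3.25 over Cloudman S91 (1.46 to 8.19). Il7, which lymphocytes need to survive, had FPKM 2.23 in 4T1 (56 counts) and was not listed elsewhere, at least 19.1-fold above B16-F1 and 15.6-fold above Cloudman S91. It was called in both comparisons with TPM or scaled counts. Il17d had FPKM 0.65, 0.92 and 4.78 for B16-F1, Cloudman S91 and 4T1 in turn. Its listed length was 2443 bases in 4T1 and 1232 in the melanoma tables, so the ratio of 4T1 over B16-F1 was 7.35 in FPKM and 14.9 in scaled counts, and with scaled counts Il17d passed the size rule in both comparisons. All of these stood highest in 4T1.

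Of the TNF superfamily 7 genes were listed, and only 3 of them, Tnfsf9, Tnfsf12 and Tnf, reached FPKM 1 in any line. In each comparison with 4T1 0 of these 3 were called, where 7.43% and 8.01% of all genes were called higher in 4T1, so the count says little about the family. Tnfsf12, which encodes TWEAK (chromosome 11, 69686240 to 69696098), had FPKM 2.69 in B16-F1 (40.1 counts), 2.72 in Cloudman S91 (33.1 counts) and 0.21 in 4T1 (3 counts), so that the melanoma lines were 12.8 times (4.16 to 66.0) and 13.0 times (4.14 to 67.3) above 4T1. The melanoma levels did not differ from each other beyond counting error (ratio 0.99, 0.61 to 1.62). The size rule missed this difference on the log2(FPKM + 1) scale (1.61 against B16-F1), and it was called with TPM or scaled counts. Tnfsf12 lies 0.686 kb from Tnfsf13, and its melanoma counts were not whole numbers.

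Tnfsf9, the 4-1BB ligand, which stimulates T cells, was carried by all lines at similar levels, with FPKM 6.93 in B16-F1 (74 counts), 5.39 in Cloudman S91 (47 counts) and 4.99 in 4T1 (52 counts). The ratio of 4T1 over B16-F1 was 0.72, with an interval of 0.49 to 1.04. Tnf itself, the central inflammatory cytokine, had 16 counts in 4T1 (FPKM 1.12), 1 in Cloudman S91 and was not listed in B16-F1. Tnfsf10, or TRAIL, stayed below FPKM 1 everywhere, at 0.73, 0.52 and 0.49 for B16-F1, Cloudman S91 and 4T1 in turn. The 4T1 level of Tnf was at least 5.54-fold above B16-F1, with few counts behind it.

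In all, 23 of the 51 genes stayed below FPKM 1 in every line, with maxima from FPKM 0.04 to 0.74, and 15 of these had at most 3 counts in any table. They were 5 CC chemokines (Ccl4, Ccl6, Ccl9, Ccl17, Ccl28), 3 CXC chemokines (Cxcl2, Cxcl9, Cxcl14), 11 interleukins (Il1b, Il6, Il12b, Il13, Il17c, Il17f, Il19, Il25, Il27, Il31, Il33) and 4 TNF ligands (Tnfsf10, Tnfsf13, Tnfsf13b, Tnfsf15). For those with so few counts, no order between the lines was detectable at this depth. Of the 51 genes, 8 were listed in a melanoma line and not in 4T1, and among these Cxcl12 alone reached FPKM 1.

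In the clusters described here, neighbouring genes had very different levels in 4T1. Genes of the rule less than 500 kb apart were taken as a cluster. The cluster of Cxcl5, Cxcl3, Cxcl15, Cxcl1 and Cxcl2 spans 147 kb of chromosome 5, and 3 of its 5 genes reached FPKM 1 in 4T1. In the cluster from Ccl5 to Ccl4 on chromosome 11 (139 kb, 5 genes) only Ccl5 did so, and in that from Ccl2 to Ccl1 (144 kb, 6 genes) only Ccl2, the other 5 not being listed in any line. In the cluster of Il24, Il20, Il19 and Il10 on chromosome 1 (143 kb), Il24 had FPKM 45.3 in 4T1 while Il19 had 1 count and Il20 and Il10 were not listed. Csf2 was listed in 4T1 with Il3, 15.2 kb away, not listed. Each of these 5 clusters holds a gene at FPKM 1 or more in 4T1, and none of their genes reached FPKM 1 in a melanoma line. They do not stand for the other clusters, some of which held genes above FPKM 1 in both melanoma lines. These were Cxcl10 (9.61 in B16-F1 and 5.45 in Cloudman S91), Tnfsf9 (6.93 and 5.39) and Tnfsf12 (2.69 and 2.72).

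**Figure D3:**
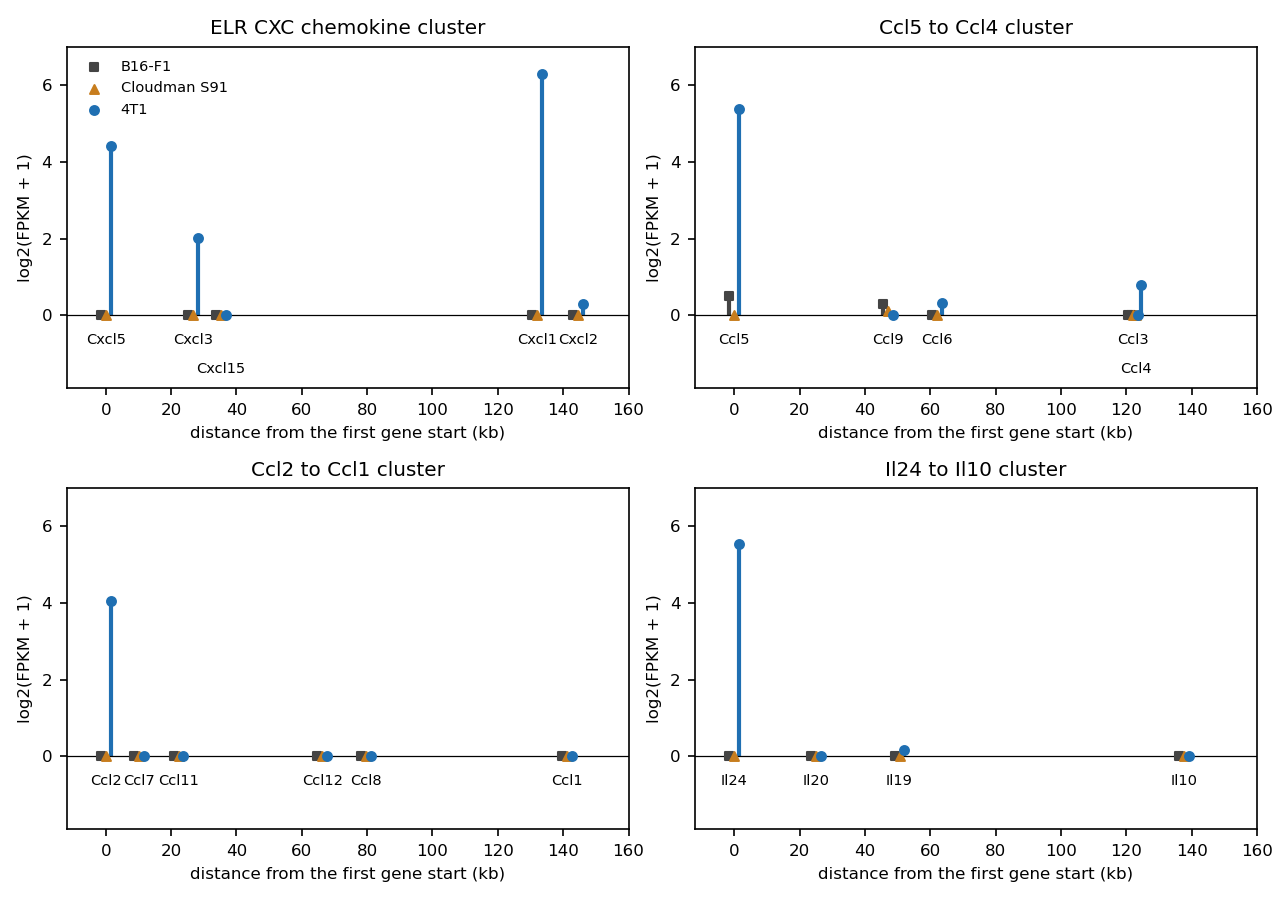
Levels of neighbouring genes in 4 clusters, as log2(FPKM + 1) against the distance in kb from the start of the first gene, for B16-F1 (squares), Cloudman S91 (triangles) and 4T1 (circles), slightly offset so that they do not cover each other. Single genes of a cluster are high in 4T1, such as Ccl5 at FPKM 40.9 and Il24 at 45.3, next to genes at or near 0.

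Chemokine receptors were mostly low in the same cells, as were Csf1r and Csf3r. Of the 23 chemokine receptors on the list 13 were listed in any table, 3 reached FPKM 1 in 4T1, and 0 were called in any pair. Only 4 were tested for 4T1 against B16-F1, 3 for 4T1 against Cloudman S91 and 4 between the melanoma lines. In these pairs 13.7%, 15.5% and 5.52% of all genes were called in either direction, so the count says little about the receptors. Cxcr2, the receptor of Cxcl1 and Cxcl5, had FPKM 3.15 in B16-F1 and 5.67 in Cloudman S91, against 12.5 in 4T1, but its counts were not whole numbers in any table (85.8, 125.8 and 333.5), and its level is uncertain. Cxcr6, Ccr2 and Ccr6, which bind Cxcl16, Ccl2 and Ccl20, were not listed in any line, and Cx3cr1 was not listed in 4T1. Ackr3, an atypical receptor that takes up Cxcl12 without G protein signalling, had FPKM 3.68, 8.23 and 12.9 for B16-F1, Cloudman S91 and 4T1 in turn. These ligand and receptor pairs were chosen after the levels were seen. Csf1r had FPKM 0.18 in 4T1 (6 counts) beside Csf1 at 132, and Csf3r 0.23 beside Csf3 at 84.2.

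Among 40 receptor genes of interleukins and colony-stimulating factors, 31 were listed in any table. Against B16-F1, 5 of the 17 tested were higher in 4T1 and 2 in B16-F1, beside 7.43% and 6.31% of all genes. Against Cloudman S91, 5 of 18 were higher in 4T1 and 2 in Cloudman S91, beside 8.01% and 7.47% of all genes. Il17ra, a receptor chain of the interleukin-17 family, had FPKM 7.87 in B16-F1 and 0.14 in Cloudman S91, against 17.1 in 4T1. Il15ra, which presents Il15, had 0.17 in B16-F1, was not listed in Cloudman S91 and had 11.8 in 4T1. Il18rap, a chain of the interleukin-18 receptor, had FPKM 6.78 in 4T1 and was not listed elsewhere. Il12rb1 had FPKM 28.9 in 4T1 against 0.82 in B16-F1 and 1.05 in Cloudman S91, and both counts of 5 include it. However, its listed length was 301 bases in 4T1 and 2873 in the melanoma tables. In scaled counts the ratio was 2.95 over B16-F1 and 2.29 over Cloudman S91. Lifr, a receptor chain of Lif, was highest in Cloudman S91, with FPKM 10.97 there, 0.29 in B16-F1 and 0.08 in 4T1 (2.72 counts). Its listed length differed, with 8786 bases in Cloudman S91, 5647 in B16-F1 and 3823 in 4T1. The related Osmr was also highest in Cloudman S91, at 14.7, with 0.32 in B16-F1 and 1.91 in 4T1. Il6st, the chain they share, was carried by all lines, at 13.9 in B16-F1 and 19.5 in Cloudman S91, against 9.75 in 4T1.

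TNF superfamily receptors were higher in 4T1 for 4 of the 7 tested against B16-F1 and 4 of the 9 tested against Cloudman S91. In a melanoma line 0 were higher. Of all genes, 7.43% and 8.01% were called higher in 4T1 in these comparisons, and 6.31% and 7.47% higher in the melanoma line. Tnfrsf12a, the receptor of Tnfsf12, had FPKM 56.8 in B16-F1 and 35.7 in Cloudman S91, against 770 in 4T1. The receptor was thus highest in the line where its ligand was lowest. Fas had 0.22 in B16-F1, was not listed in Cloudman S91 and had 8.68 in 4T1, and the other genes called were Tnfrsf1b (4.8 in 4T1) and Cd40 (3.71 in 4T1).

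**Figure D4:**
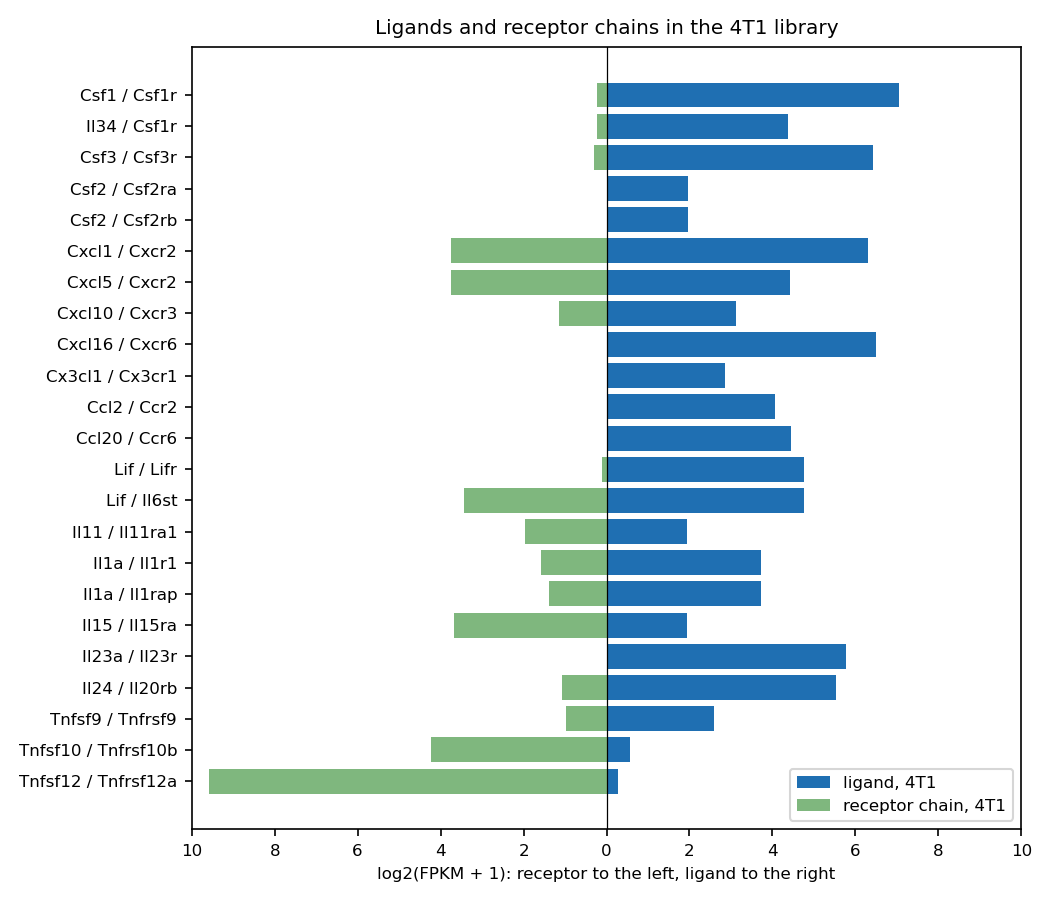
Levels of 23 pairs of a ligand (blue bars, to the right) and a receptor chain (green bars, to the left) in the 4T1 library, both as log2(FPKM + 1). Some ligands stand beside little or no receptor, as Csf1 at FPKM 132 beside Csf1r at 0.18. Others stand beside a receptor chain that was present, as Lif beside Il6st at 9.75 and Il15 beside Il15ra at 11.8. Tnfsf12 at 0.21 beside Tnfrsf12a at 770 is the opposite case to Csf1.

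NF-kappaB is a family of transcription factors that induces many chemokine genes, and its inhibitors are among its own targets. All 20 genes of this list, which was chosen with earlier results of these data known, were listed and tested. Against each melanoma line 11 of 20 were higher in 4T1 and 0 were higher in the melanoma line. Of all genes tested, 7.43% were called higher in 4T1 and 6.31% in B16-F1, and 8.01% and 7.47% in the comparison with Cloudman S91. The median difference of the list was 2.09 for 4T1 minus B16-F1 and 2.31 for 4T1 minus Cloudman S91. Over all genes it was -0.03 and 0.14. Traf1, an adaptor of TNF receptors, had FPKM 54.1 in 4T1, was not listed in B16-F1 and had 0.04 in Cloudman S91. Tnfaip3, an enzyme that limits the pathway, had 0.28 in B16-F1 and 0.61 in Cloudman S91, against 28.9 in 4T1. The subunits Nfkb2 (11.1, 14.2 and 130) and Relb (3.41, 4.79 and 41.4) and the inhibitors Nfkbia (5.58, 10.2 and 68.6) and Nfkbie (2.81, 1.02 and 21.7) were also highest in 4T1, with FPKM for B16-F1, Cloudman S91 and 4T1 in turn. These 6 genes, Traf1 and Tnfaip3 included, have the largest called differences on the list and do not stand for the rest of it. Rel (1.39, 1.97 and 0.27), Chuk (24.0, 20.4 and 16.5) and Ikbkg (9.02, 6.19 and 5.87) were lowest in 4T1, although none of them was called.

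**Figure D5:**
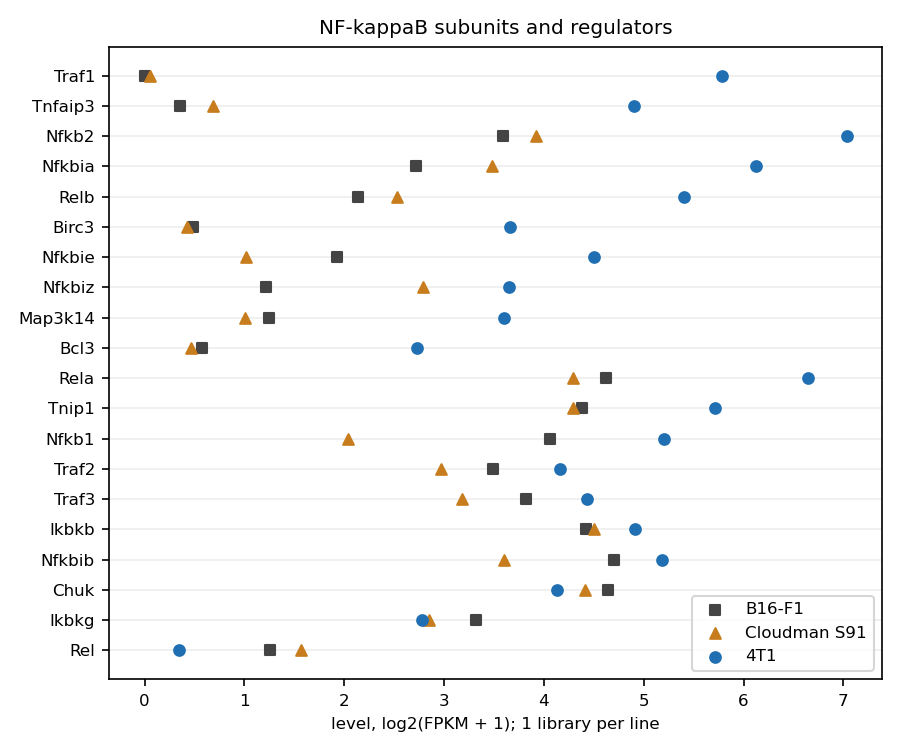
Levels of the 20 NF-kappaB subunits and regulators as log2(FPKM + 1), for B16-F1 (squares), Cloudman S91 (triangles) and 4T1 (circles), each 1 library. 4T1 is more than 2 units above B16-F1 for 11 genes, and Rel, Chuk and Ikbkg are lowest in 4T1, Rel at FPKM 0.27.

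Markers of other cell types that could carry cytokine RNA were near 0 in 4T1 for most genes. Of 15 macrophage and monocyte markers 4 were listed in 4T1, with summed FPKM 19.7, against 4.45 in B16-F1 and 125 in Cloudman S91. The 4T1 sum came mainly from Cd68 (11.4) and Cd14 (8.08), while Ptprc, Adgre1, Itgam, Lyz2, C1qa and C1qb were not listed there. The sum of Cloudman S91 was almost all Fcer1g (122). Of 10 neutrophil markers, the sum was 3.4 in B16-F1 and 5.9 in Cloudman S91, against 13.1 in 4T1, of which Cxcr2 made up 12.5 in 4T1, and S100a8 had 1 count there. T and B cell markers summed to 0.47, 1.8 and 2.83, fibroblast markers to 5.21, 22.9 and 9.85 and endothelial markers to 1.33, 11.9 and 0.21, each for B16-F1, Cloudman S91 and 4T1 in turn. Postn, a matrix protein of fibroblasts, had FPKM 1.25, 0.59 and 8.43 in that order and was called higher in 4T1 against both melanoma lines, while the collagens Col1a2 and Col3a1 and the markers Dcn, Lum and Pdgfrb were not listed in 4T1. Lck, a kinase of T cells, had 0.05, 0.73 and 2.61 (47 counts in 4T1), with Cd3d, Cd3e and Cd3g not listed in any line. The pan-leukocyte gene Ptprc had 3 counts in B16-F1 and was not listed in the other lines. The part of the markers that were above 0 in 4T1, Cd68, Cd14, Postn and Lck among them, in the cytokine levels was not tested.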

How the data were processed

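Per the labels, poly(A) RNA was selected with oligo(dT) from DNase-treated RNA of frozen pellets, and cDNA libraries were amplified by PCR. BGI sequenced them and processed the reads, per the series design. HISAT, StringTie and mm10 are named in the submitters' processing notes. The counting program was not given in the sources used here. Per the file headers, each deposited table gives an expected count (an estimated count, not normalised) and an FPKM value per gene. Between 88.1% and 88.9% of expected counts were whole (within 0.005). Rows without a symbol (2.24% to 4.32% of counts) were left out.

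Tables were matched to lines by the sheet name. Members were found by symbol, and members and lists were chosen with earlier results of these data known. Genes are described by subfamily if they reached FPKM 1. In related lists, up to 6 genes with the largest called differences are named, and some genes are not reported here. Differences use log2(FPKM + 1). Intervals are exact Poisson or conditional binomial on rounded counts, or Wilson for shares, and a fold against an unlisted gene uses 3 counts in that library. PCR copies make reads less independent than these intervals assume. Positions and promoters are from RefSeq GRCm38.p6, matched by gene number for all 51 genes and for 35 of them. The size rule was tested on simulated data. Python 3.11.15, pandas 2.3.3 and scipy 1.17.1 were used. Other pseudocounts, filters, scalings and fold rules were tried.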

Additional observations from a re-analysis of the deposited data

How the results depend on the processing

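No paired analysis was possible because each line has 1 library and no value comes from a test. With 1 library per line no library could be left out of a comparison. Of the 15 genes higher in 4T1, between 12 and 15 were kept in each comparison under the 10 alternatives. Cxcl3 was lost under median-of-ratios scaling, upper-quartile scaling, scaled counts (counts divided by the library total), an FPKM minimum of 5, the 8-fold rule and a pseudocount of 5, Cx3cl1 under the last pair, and Il1a under a pseudocount of 5. The number of genes higher in a melanoma line against 4T1 was 0 and became 1 for B16-F1 (Tnfsf12) and 2 for Cloudman S91 (Tnfsf12 and Cxcl12) with a pseudocount of 0.1, TPM, scaled counts and the 2-fold rule. Between the melanoma lines, the genes higher in Cloudman S91 became 2 (Cxcl11 and Cxcl12) with a pseudocount of 0.1, TPM and the 2-fold rule, and 1 (Cxcl12) with scaled counts. The median difference for 4T1 minus B16-F1 was 5.22 with a pseudocount of 0.1, 1.41 with 5 and 0.57 with no filter, and for 4T1 minus Cloudman S91 4.94, 0.90 and 0.78. These shifts follow from the construction, since the pseudocount sets the difference of genes at or near 0 and no filter adds genes with few counts. Genes at FPKM 1 or more became 2, 2 and 16 at a minimum of 5 and 25, 26 and 43 at any level in B16-F1, Cloudman S91 and 4T1, and 8 in B16-F1 with TPM. The other 68 recomputed values differed less, with counts within 1.5 times. Depth limits genes with few counts: for Ccl2, 3 counts correspond to FPKM 0.415 in B16-F1 and 0.508 in Cloudman S91.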

Other observations

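Secreted signals whose symbols fall outside the rule gave a mixed picture. Of 27 such genes 19 were listed in any table. Against B16-F1, 3 of the 11 tested were higher in 4T1 and 1 in B16-F1, beside 7.43% and 6.31% of all genes. Against Cloudman S91, 5 of 12 were higher in 4T1 and 0 in Cloudman S91, beside 8.01% and 7.47% of all genes. Mif, a macrophage inhibitory factor, was abundant everywhere, at FPKM 1091 in B16-F1 and 815 in Cloudman S91, against 1603 in 4T1. Spp1, or osteopontin, had 0.24, 1.08 and 161, and Clcf1, a cytokine of the interleukin-6 family, had 0.12, 0.45 and 34.6 in the same order. Tslp, an epithelial cytokine, had 12.6 in 4T1 and was not listed elsewhere. Flt3l, a growth factor of dendritic cells, had 0.54, was not listed in Cloudman S91 and had 4.98 in 4T1, and Kitl, the ligand of Kit, had 0.53, 0.07 and 3.89.

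Genes for proteins that act on the stability of cytokine messenger RNA, most of them promoting decay and Elavl1 known to stabilise its targets, were expressed in every line. All 9 genes of this list reached FPKM 1 in all 3 libraries. Zfp36l1 had FPKM 20.5 in B16-F1 and 120 in Cloudman S91, against 16.5 in 4T1, and it was called higher in Cloudman S91 than in either other line. Zfp36l2 had 13.8, 11.9 and 67.9, called higher in 4T1 than in both melanoma lines. The remaining 7 genes, among them Zc3h12a (1.56, 1.62 and 7.78), were not called in any pair. Higher in 4T1 was thus 1 of 9 in each comparison, beside 7.43% of all genes against B16-F1 and 8.01% against Cloudman S91. Higher in Cloudman S91 was 1 of 9 against 4T1 and 1 of 9 against B16-F1, beside 7.47% and 3.19% of all genes. Such counts say little about the list.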
